A study of Mus musculus with 18 samples.

Results

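Methylation of single CpG dinucleotides was compared between gonadal fat of male mice exposed to bisphenol A (BPA) before birth and gonadal fat of unexposed males. All CpGs of chromosomes 1 to 19 read at least 20 times in the BPA pool and in the control pool were used, which was 1652844 of the 1946477 CpGs listed for fat (84.9%), and of 5339994 listed over the 3 tissues of the series. BPA is a plasticizer monomer with weak oestrogenic activity. The BPA pool joined 3 fat samples of C57BL/6 males at 3 weeks of age, whose dams were gavaged with 5 mg of BPA per kg per day, dissolved in corn oil, from day 1 to day 20 after conception. The control pool joined 3 samples of males of the same strain and age, whose dams received corn oil without BPA. The BPA offspring came from 4 litters and the control offspring from 3 litters, and no source used here ties a sample to its litter. All dams were kept on a diet low in oestrogenic isoflavones, and all offspring on standard chow. Reduced representation bisulfite sequencing was used, in which MspI fragments rich in CpGs are treated with bisulfite and sequenced, and methylated cytosines are those left unconverted.

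In mammals, methylation sits mostly on CpG dinucleotides. CpG islands at active gene starts are largely unmethylated, while gene bodies and intergenic DNA are largely methylated, and CpGs of intermediate level are often found in enhancers and in regions that differ between cell types. White fat stores triglyceride and secretes adipokines, and it holds adipocytes, their precursors, vessels and immune cells. In bulk tissue, a shift in the share of a cell type and a methylation change within cells cannot be told apart.

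The deposited values give each pool as a whole, so no spread between animals can be given, and every test below compares pooled reads. The pools are numbered, and number 1 was read as BPA only because a label names control before BPA. If the numbering runs the other way, every direction below turns round. CpGs of 1 read are not independent and reads carry no molecular identifiers, so intervals and p-values cover counting error at most. The median CpG had 195 reads in the BPA pool (quartiles 94 and 297) and 171 reads in the control pool (quartiles 82 and 263). Adipocyte genes carried less methylation in fat than in the other tissues. Over the shared CpGs of 12 adipocyte markers, the median level was 65.3% in the BPA pool and 62.5% in the control pool of fat, and 80.2% in the hypothalamus and 73.3% in the liver control pools, and 8 of the 12 genes were lowest in fat control. Fabp4, a fatty acid carrier of adipocytes, stood at 43.6% in the BPA pool and 41.8% in the control pool of fat, against 89.9% in hypothalamus and 85.6% in liver controls. Adipoq (83.9% in the BPA pool and 84.5% in the control pool of fat, 82.8% in liver controls) and Cidec (74.1% in the BPA pool and 74.4% in the control pool of fat, 46.3% in liver controls) were not lowest in fat.

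Promoter windows were mostly unmethylated in both pools, and a few of them carried several differing CpGs. The windows run from 250 bp before to 50 bp after a RefSeq gene start, and 12521 of them held a measured CpG. A CpG was called at a Benjamini-Hochberg adjusted p under 0.05 in Fisher's exact test if its levels in the pools also lay 5 or more percentage points apart. Differences are given as BPA minus control. At least 1 called CpG was found in 150 windows (1.2%), and 15 windows held at least 2. The sequences of 5 of these windows are printed, all of them windows of genes with known functions. They were chosen from the 15 after their values were seen. They come from RefSeq on build GRCm38.p6, read 5′ to 3′ on the gene's strand, and capitals mark the called CpGs. The windows are Rara (chr11:98939461-98939760, plus strand), Npas4 (chr19:4989922-4990221, minus strand), Dnah6 (chr6:73221582-73221881, minus strand), Fam110a (chr2:151973345-151973644, minus strand) and Haao (chr17:83846741-83847040, minus strand).
Rara: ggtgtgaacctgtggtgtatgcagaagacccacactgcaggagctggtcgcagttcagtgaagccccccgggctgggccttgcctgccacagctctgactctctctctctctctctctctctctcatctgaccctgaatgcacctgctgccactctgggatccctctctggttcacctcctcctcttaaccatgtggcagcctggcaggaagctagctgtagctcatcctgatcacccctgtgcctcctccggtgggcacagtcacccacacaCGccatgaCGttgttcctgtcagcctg
Npas4: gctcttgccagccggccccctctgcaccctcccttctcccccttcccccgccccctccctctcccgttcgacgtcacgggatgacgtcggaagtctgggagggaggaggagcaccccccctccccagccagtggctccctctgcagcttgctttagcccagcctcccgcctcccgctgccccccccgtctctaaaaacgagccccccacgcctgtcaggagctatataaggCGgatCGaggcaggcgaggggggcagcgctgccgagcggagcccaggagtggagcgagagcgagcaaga
Dnah6: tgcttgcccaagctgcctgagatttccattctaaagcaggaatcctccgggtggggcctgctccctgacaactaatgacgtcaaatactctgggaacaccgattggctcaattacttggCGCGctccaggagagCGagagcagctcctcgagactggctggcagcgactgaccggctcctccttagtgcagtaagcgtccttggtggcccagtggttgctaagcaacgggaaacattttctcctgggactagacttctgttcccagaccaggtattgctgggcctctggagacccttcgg
Fam110a: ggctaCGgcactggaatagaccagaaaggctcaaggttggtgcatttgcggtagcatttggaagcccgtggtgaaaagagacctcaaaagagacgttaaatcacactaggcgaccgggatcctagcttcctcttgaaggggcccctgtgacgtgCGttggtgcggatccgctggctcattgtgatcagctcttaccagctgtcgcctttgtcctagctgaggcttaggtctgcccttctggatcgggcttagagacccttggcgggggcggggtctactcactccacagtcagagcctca
Haao: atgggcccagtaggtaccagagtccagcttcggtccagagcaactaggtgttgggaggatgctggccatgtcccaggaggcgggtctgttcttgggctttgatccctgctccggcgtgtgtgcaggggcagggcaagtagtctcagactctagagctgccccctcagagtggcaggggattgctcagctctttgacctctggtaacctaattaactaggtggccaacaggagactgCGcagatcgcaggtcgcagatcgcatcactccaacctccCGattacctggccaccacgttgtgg

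Of these 5 windows, 3 were lower and 2 were higher in the BPA pool at their called CpGs. Rara encodes the retinoic acid receptor alpha. The 3 measured CpGs of its printed window, the first of them on that window's start, averaged 18.0% in the BPA pool and 35.9% in the control pool. The CpG 23 bp downstream of the start read 27.7% in the BPA pool and 54.5% in the control pool, and the one 31 bp downstream read 10.1% in the BPA pool and 31.2% in the control pool (adjusted p = 0.0153 and 0.0229, Fisher's exact test). The CpG on the start itself read 16.2% in the BPA pool and 22.1% in the control pool and was not called. Overlapping Rara windows of earlier starts, from chr11:98937446 and chr11:98937468, held 0 called CpGs. The first averaged 0.831% in the BPA pool and 0.768% in the control pool over 13 CpGs. The second averaged 0.900% in the BPA pool and 0.832% in the control pool over 12 CpGs. The same bases also lie in Gm46294, and the position lies within both genes.

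The other windows differed by less. Npas4, an activity-dependent transcription factor of neurons, averaged 10.8% in the BPA pool and 18.9% in the control pool over 8 CpGs, of which 2 were called lower. Dnah6, an axonemal dynein heavy chain, averaged 6.52% in the BPA pool and 12.0% in the control pool over 11 CpGs, of which 3 were called lower. Both stayed low in both pools. Haao, an enzyme of the kynurenine pathway, averaged 73.7% in the BPA pool and 67.8% in the control pool over 10 CpGs, with 2 called higher. Fam110a, a centrosome-associated protein, averaged 35.3% in the BPA pool and 28.6% in the control pool over 14 CpGs, with 2 called higher. Among the remaining windows with at least 2 called CpGs, Txk, a Tec-family kinase of T cells, was lower (62.7% in the BPA pool and 71.5% in the control pool), and Zfp345, a zinc finger gene, was higher (67.7% in the BPA pool and 55.7% in the control pool). The nuclear receptor motif AGGTCA, searched on both strands, was in the Haao window and in none of the other 4 printed, and 16.3% of all 32851 windows hold it. The MspI site CCGG was in all 5, and in 52.8% of all windows. All windows include those without a measured CpG, and the method reads MspI fragments, so this comparison is no result about the 5.

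Across all CpGs, the mean levels of the pools differed by less than 1 point. The mean level was 49.1% in the BPA pool and 49.2% in the control pool, a difference of -0.147 percentage points. It was negative on each of the 19 chromosomes, between -0.0645 points on chromosome 11 and -0.241 points on chromosome 13. CpGs over 5 kb from any gene averaged 77.5% in the BPA pool and 77.8% in the control pool (difference -0.307 points), and CpGs of promoter windows 4.21% in the BPA pool and 4.22% in the control pool. No test of these means is possible without values per animal.

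Differences of single CpGs ran in both directions. Of 1652844 CpGs, 10271 were called (0.621%), 4852 higher (0.294%) and 5419 lower (0.328%) in the BPA pool, with a median size of 15.1 points. A difference of at least 20 points was seen at 2848 called CpGs and of at least 30 points at 1055. The pools differed more than counting alone would make them. The squared difference averaged 1.93 times that expected from counting error, a spread that joins differences between animals, litters and PCR with those of treatment, and these cannot be told apart. Once the counting error was widened by that factor, 35 CpGs were called, so most single CpG values below are descriptions of these pools.

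Neighbouring CpGs share reads, so CpGs at most 100 bp apart were joined into units, each with the mean level of its CpGs and their mean read number. Where the CpGs of a unit differ much in depth, the mean read number overstates the reads behind the less read ones. Intervals and p-values of such units are then too narrow even for counting error. The 358794 units comprised 120511 single CpGs and 168093 units of at least 3 CpGs. A call was made for 589 units (0.164%), 285 higher (0.0794%) and 304 lower (0.0847%) in the BPA pool, of which 480 were single CpGs and 71 were pairs. Among units of at least 3 CpGs, 38 were called (0.0226%), 18 higher and 20 lower. In these 38, all CpGs pointed one way in 32 units (84.2%), against 15.4% of all units of that size, a share the choice by unit mean raises. At least 3 called CpGs lay in 130 units, and they had 1 direction in 125, higher in 73 and lower in 52. With the counting error widened by the mean excess of units, 1.24, the call was kept by 84 units.

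**Figure D1:**
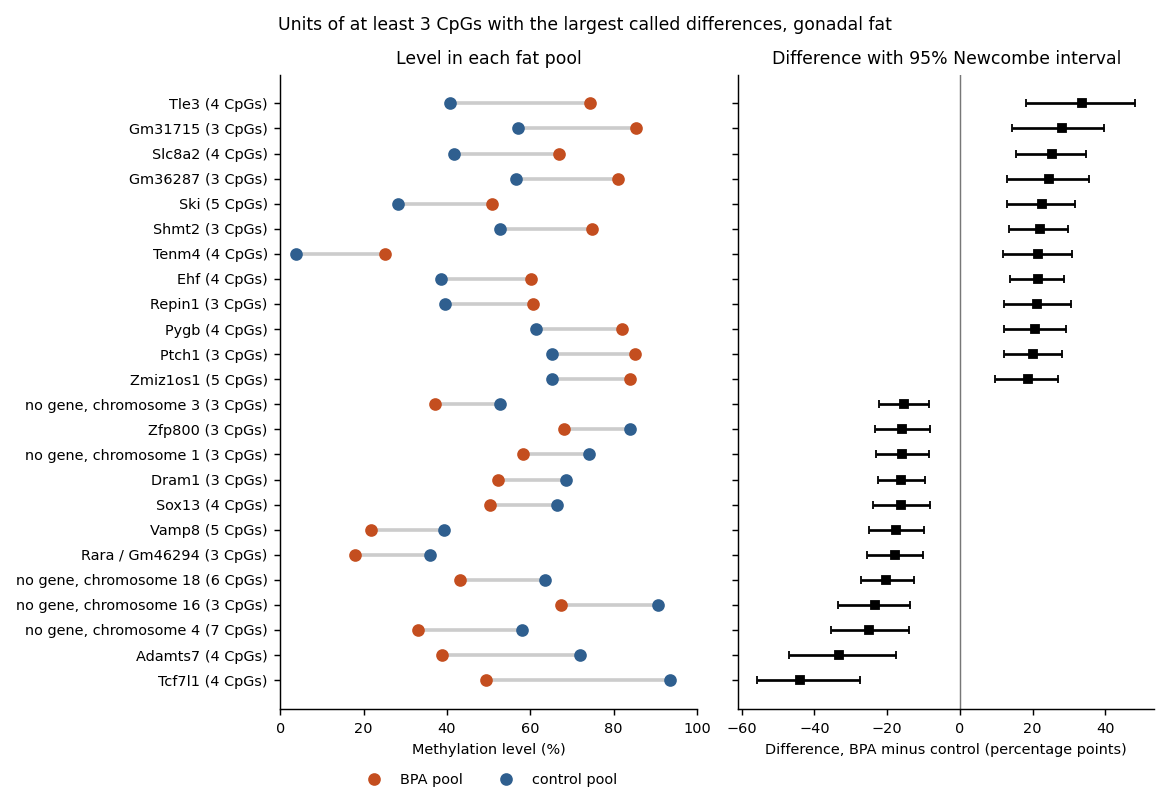
The 12 leading units of at least 3 CpGs in each direction, one per row, with the level in percent in the BPA pool and the control pool in the left panel and the difference, BPA minus control, in percentage points with its 95% Newcombe interval in the right panel. The largest differences are at Tcf7l1 (-44.02 points) and Tle3 (33.7 points), and no interval reaches 0. Intervals rest on the mean read number of a unit, so they are too narrow where its CpGs differ much in depth.

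Neighbouring CpGs differed together in Tcf7l1 and Dram1, which were lower in the BPA pool, and in Shmt2 and Ski, which were higher. With widened counting error, Tcf7l1 and Shmt2 kept their call, while Dram1 (adjusted p = 0.0503, chi-square test of pooled reads) and Ski (adjusted p = 0.0924, the same test) did not. Of the 24 leading units, 12 in each direction, 6 in each direction were also called when each CpG was weighted by its reads, and these are described first. Tcf7l1, a transcription factor of the TCF/LEF family that acts in Wnt signalling, held the largest difference. Its unit of 4 CpGs lay in the gene body, 14474 bp downstream of the nearest gene start (chr6:72692016-72692073), and averaged 49.4% in the BPA pool and 93.5% in the control pool. The difference was -44.0 points (95% interval -55.8 to -27.5, adjusted p = 0.00128, Fisher's exact test). All 4 CpGs were called. They read 56.7%, 38.7%, 40.4% and 62.0% in the BPA pool, against 94.6%, 91.1%, 96.5% and 91.7% in the control pool. Depth was modest, with a mean of 62 reads per CpG in the BPA pool and 57 in the control pool.

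Shmt2, the mitochondrial serine hydroxymethyltransferase that feeds one-carbon units into folate metabolism, was higher. Its 3 CpGs lay in the gene body, 1219 to 1250 bp downstream of a start (chr10:127521194-127521226). They read 69.0%, 82.5% and 72.9% in the BPA pool, against 46.2%, 64.2% and 47.6% in the control pool, and all 3 were called. The unit differed by 22.1 points (interval 13.5 to 29.9, adjusted exact p = 0.00216), with 272 reads per CpG in the BPA pool and 233 in the control pool. Ski, a co-repressor of TGF-beta and SMAD signalling, was higher at 5 CpGs of its body (chr4:155207623-155207689). They read 44.8%, 52.4%, 51.4%, 49.3% and 56.2% in the BPA pool, against 21.0%, 26.0%, 28.2%, 24.9% and 40.9% in the control pool, and all but the last were called. The unit differed by 22.6 points (interval 12.9 to 31.6, adjusted exact p = 0.0134).

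Of the other higher units in this group, Pygb, the brain form of glycogen phosphorylase, had a unit 272 bp outside its body at 82.0% in the BPA pool and 61.4% in the control pool (adjusted exact p = 0.00863). Zmiz1os1, an RNA gene on the opposite strand of Zmiz1, averaged 83.8% in the BPA pool and 65.2% in the control pool over 5 CpGs, of which 4 were called. The remaining 2 lay in or near predicted genes, Gm36287 (81.1% in the BPA pool and 56.6% in the control pool) and Gm31715 (85.3% in the BPA pool and 57.1% in the control pool).

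The lower units of this group were led by Adamts7, a secreted metalloproteinase, at 38.9% in the BPA pool and 72.0% in the control pool over 4 CpGs of its body. That unit was called with little margin (adjusted exact p = 0.0440) at 86 reads in the BPA pool and 64 reads in the control pool. Dram1, a lysosomal membrane protein of p53-induced autophagy, read 55.9%, 47.0% and 53.9% in the BPA pool, against 73.1%, 63.8% and 68.6% in the control pool (chr10:88353893-88353987). All 3 CpGs were called, with a unit difference of -16.2 points (interval -22.5 to -9.69, adjusted exact p = 0.00481) with 458 reads per CpG in the BPA pool and 405 in the control pool. Sox13, a SOX-family transcription factor, averaged 50.2% in the BPA pool and 66.5% in the control pool over 4 CpGs, of which 3 were called. The last 2, at chr1:90298099-90298132 and chr3:152689289-152689322, lay over 5 kb from any gene. The unit on chromosome 1 stood at 58.2% in the BPA pool and 74.2% in the control pool, and the one on chromosome 3 at 37.2% in the BPA pool and 52.7% in the control pool.

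**Figure D2:**
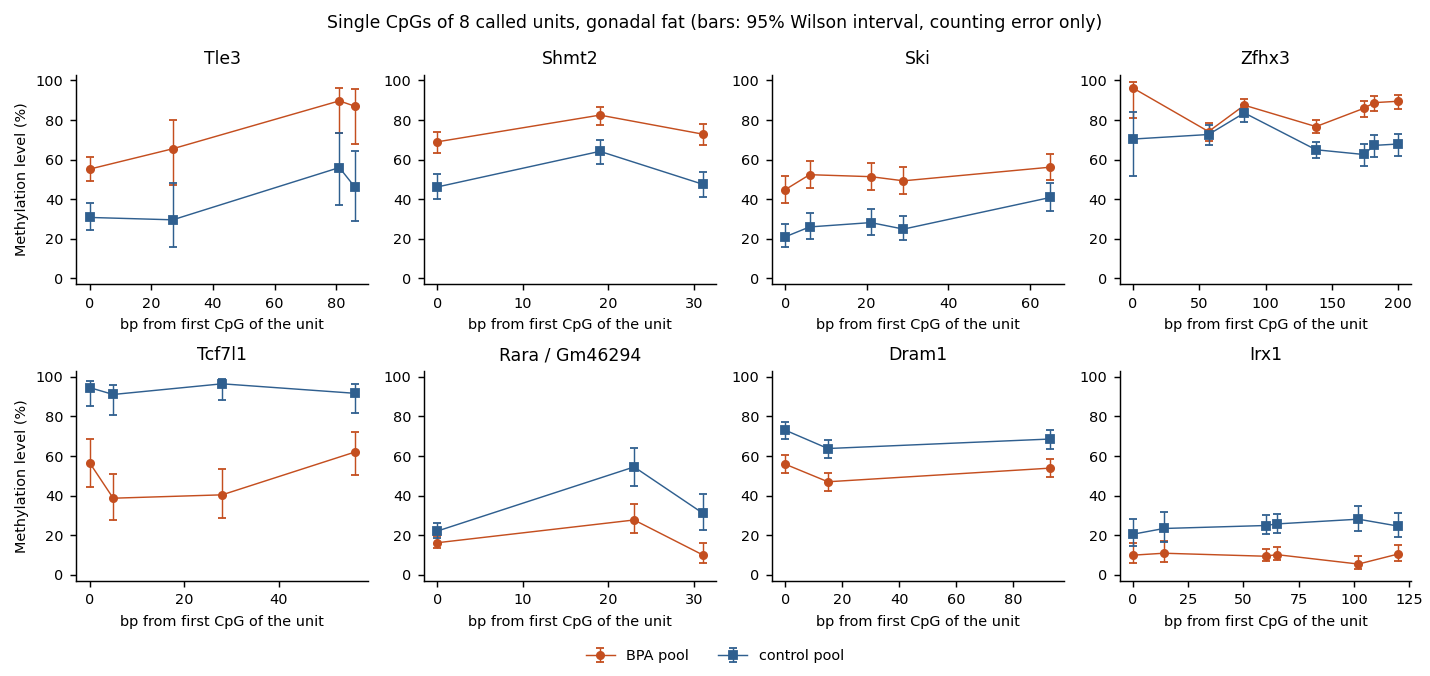
Level in percent of each CpG in 8 units, Tle3, Shmt2, Ski, Zfhx3, Tcf7l1, Rara with Gm46294, Dram1 and Irx1, by distance in bp from the unit's first CpG, in the BPA pool and the control pool with 95% Wilson intervals for counting error. The pools are apart at every CpG of Tcf7l1, Shmt2 and Dram1, while the first Rara CpG, at 16.2% in the BPA pool and 22.1% in the control pool, overlaps.

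The other 12 leading units were not called when CpGs were weighted by reads, and in each of them the less read CpGs showed the larger differences. Tle3, a Groucho-family co-repressor that promotes adipocyte differentiation in mouse cells, is the largest of them, with 74.4% in the BPA pool and 40.6% in the control pool. Its well-read CpG stood at 55.2% of 250 reads in the BPA pool and 30.8% of 172 reads in the control pool (adjusted exact p = 0.00200), and its other 3 CpGs, with 23 to 29 reads each in the BPA pool, pointed the same way without a call. The weighted difference was 26.5 points (adjusted exact p = 0.233). Ehf, an ETS factor of epithelia, rested on 1 called CpG read 21 times in the BPA pool and 20 times in the control pool. Vamp8, a SNARE protein of membrane fusion, and Tenm4, a teneurin of cell adhesion, held no called CpG, although their units were called.

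In the remaining 8 of that group the pattern was similar. Slc8a2, a sodium-calcium exchanger, read 83.3% and 78.6% in the BPA pool, against 44.0% and 22.0% in the control pool, at 2 called CpGs with 42 reads each in the BPA pool. Its 2 deeper CpGs read 49.5% and 56.1% in the BPA pool, against 50.4% and 50.1% in the control pool, and were not called. In Ptch1, the Hedgehog receptor, and Repin1 and Zfp800, zinc finger genes, a single CpG was called, with between 24 and 32 reads in the BPA pool. The Rara unit kept 2 called CpGs but its weighted difference was -11.3 points (adjusted exact p = 0.267). The last 3, on chromosomes 4, 16 and 18, lay over 5 kb from any gene.

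The gene lists are described by their called CpGs and units, each beside the share over all CpGs (0.621%) and all units (0.164%), and a share near these is no result about a list. In 26 genes of fat storage and adipokines, 7 of 1179 CpGs were called (0.594%, near the share over all), 4 higher and 3 lower, and 0 of 221 units. The calls lay in 6 genes (23.1%), beside 5535 of all 32951 genes (16.8%), but a gene's chance of a call grows with its number of CpGs. Plin1, which coats lipid droplets, read 71.5% in the BPA pool and 48.3% in the control pool at 1 CpG (adjusted exact p = 0.0377). Aqp7, a glycerol channel, read 62.9% in the BPA pool and 39.4% in the control pool, and Mgll, monoglyceride lipase, was higher at 2 CpGs, 96.3% in the BPA pool and 73.3% in the control pool at the larger. Cavin1, a caveolar coat protein, read 29.1% in the BPA pool and 46.6% in the control pool. Dgat2, which makes triglyceride, read 86.7% in the BPA pool and 97.2% in the control pool. Slc7a10, an amino acid transporter of adipocytes, read 76.9% in the BPA pool and 92.7% in the control pool. Adipoq, Lep, Fabp4 and Cidec together had 78 measured CpGs and 0 calls, too few CpGs to set against the share over all.

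Regulators of adipocyte differentiation were called in both directions. Of 38 measured genes, 16 held 33 called CpGs (0.483% of the list's CpGs, beside 0.621% over all), 19 higher and 14 lower, and 1 of 1049 units was called (0.0953%, beside 0.164%). That unit was a single CpG of Zfp423, a zinc finger factor of preadipocyte commitment, with 80.1% in the BPA pool and 57.6% in the control pool (difference 22.5 points, interval 11.8 to 32.8, adjusted exact p = 0.0378). Zfp423 held another 2 called CpGs, both lower, so the gene had no single direction. Prdm16, the co-regulator of brown and beige fat identity, held 9 called CpGs among 834 (1.08%, beside 0.621% over all), 4 higher and 5 lower. That is the most of the list by number, but Prdm16 also had the most measured CpGs. Ebf2, for example, had a larger share (1.6%). A pair of neighbouring Prdm16 CpGs read 19.7% and 11.8% in the BPA pool, against 46.5% and 41.7% in the control pool. Tcf7l2, a Wnt factor like Tcf7l1, was higher at all 3 called CpGs, for example 79.9% in the BPA pool and 56.7% in the control pool. A CpG assigned to Cebpa, a master regulator of adipocyte differentiation, read 62.0% in the BPA pool and 100% in the control pool (adjusted exact p = 0.0147), and no CpG of Pparg was called.

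Lipid genes were called in both directions, at shares of CpGs near that over all. In lipogenesis and cholesterol genes, 17 CpGs of 11 among 27 genes were called (0.662%, beside 0.621% over all), 9 higher and 8 lower, and 0 of 492 units. Fasn, fatty acid synthase, was higher at 3 of 4 called CpGs, with neighbours at 80.8% and 81.3% in the BPA pool, against 64.0% and 63.9% in the control pool. Acacb, acetyl-CoA carboxylase beta, was lower at 2 neighbours, 57.4% and 47.0% in the BPA pool, against 77.0% and 67.4% in the control pool. In fatty acid oxidation, 9 CpGs of 5 among 20 genes were called (0.799%), 4 higher and 5 lower. The 1 called unit of the 194 of that list was a CpG of Acsl1, the long-chain acyl-CoA synthetase of fat, at 90.9% in the BPA pool and 64.5% in the control pool (adjusted exact p = 0.0383).

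Insulin and IGF signalling had 26 called CpGs in 16 of 30 genes (0.643%, near the 0.621% over all), 15 higher and 11 lower. Igf1, insulin-like growth factor 1, held the 1 called unit among the 624 of the list, at 68.7% of 281 reads in the BPA pool and 86.6% of 238 reads in the control pool. The difference was -17.9 points (interval -24.6 to -10.8, adjusted exact p = 0.00454). Irs1, the insulin receptor substrate, was lower at both called CpGs, 36.8% and 77.0% in the BPA pool, against 61.0% and 97.6% in the control pool. Igf1r, the IGF1 receptor, was higher at 2 neighbours, 44.2% and 39.9% in the BPA pool, against 27.2% and 26.3% in the control pool, and lower at 1 CpG elsewhere.

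Nuclear receptors, the family that includes the oestrogen receptors BPA is known to bind, were listed together with Gper1, Ahr and Cyp19a1, which are not of that family. Calls in this list ran in both directions. Of 42 measured genes, 21 held 39 called CpGs (0.691%, beside 0.621% over all), 15 higher and 24 lower, beside 47.2% higher over all called CpGs. Of 1000 units, 3 were called (0.3%, beside 0.164%). Of these units 2 were lower and 1 was higher. Esrrg, the oestrogen-related receptor gamma, stood at 56.2% in the BPA pool and 76.0% in the control pool (difference -19.8 points, interval -28.1 to -11.0, adjusted exact p = 0.0188). Rara is described above with its window at chr11:98939461-98939760, and its windows of earlier starts held 0 called CpGs. Hnf4a, a receptor of liver and gut, stood at 68.0% in the BPA pool and 50.5% in the control pool (difference 17.5 points, interval 9.80 to 24.8, adjusted exact p = 0.0138).

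The oestrogen receptors Esr1, Esr2 and Gper1 held 4 called CpGs among 362 (1.1%, beside 0.621% over all). Esr1 read 94.5% in the BPA pool and 81.1% in the control pool at 1 CpG, far inside the locus. Esr2 held 1 CpG at 54.3% in the BPA pool and 37.1% in the control pool and another at 66.9% in the BPA pool and 81.7% in the control pool. Gper1, the membrane oestrogen receptor, read 96.1% in the BPA pool and 80.2% in the control pool. Esrra, the oestrogen-related receptor alpha, was lower at 4 of 5 called CpGs, the largest at 16.7% in the BPA pool and 64.9% in the control pool (adjusted exact p = 0.0124). Nr4a2, an orphan receptor induced by stimuli, was lower at 3 of 4, and Thra, the thyroid hormone receptor alpha, was higher at both, 71.9% and 60.3% in the BPA pool, against 51.4% and 37.3% in the control pool.

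Patterning genes held several runs of neighbours with 1 direction. Of 48 genes, 18 held 57 called CpGs among 6997 (0.815%, beside 0.621% over all), 30 higher and 27 lower, and 3 of 833 units were called (0.36%, beside 0.164%). Zfhx3, a large zinc finger homeobox factor, averaged 85.5% in the BPA pool and 69.9% in the control pool over 7 CpGs (adjusted exact p = 0.00805). Over the whole gene 12 of 979 CpGs were called (1.23%, beside 0.621% over all), 10 higher and 2 lower. Irx1, an Iroquois homeobox factor, averaged 9.39% in the BPA pool and 24.5% in the control pool over 6 CpGs 591 bp from the gene (difference -15.1 points, interval -22.1 to -8.07, adjusted exact p = 0.0291). All 9 called CpGs of Irx1 were lower. Shh, the Hedgehog ligand, stood at 6.24% in the BPA pool and 18.7% in the control pool at a pair of CpGs (adjusted exact p = 0.00101), and 9 of its 10 called CpGs were lower.

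The Hox genes of the list held 15 called CpGs, 12 higher and 3 lower, with 7 of the higher ones in Hoxd3 alone. These counts were not set against the share over all CpGs (0.621%), so they are no result about Hox genes. Hoxa3 was higher at 3 neighbours 61 to 105 bp downstream of a start, 29.8%, 28.9% and 28.0% in the BPA pool, against 6.15%, 4.76% and 3.57% in the control pool, and lower at 2 CpGs farther off. All 7 called CpGs of Hoxd3 were higher, led by 36.7% in the BPA pool and 13.4% in the control pool (adjusted exact p = 1.46e-04). Hoxa10 and Hoxa11 were each higher at 1 CpG, and Hoxd9 was lower at 1, 37.7% in the BPA pool and 53.3% in the control pool.

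The extracellular matrix list had the largest share of called CpGs among the 10 pathway lists. Of its 4139 CpGs, 45 were called (1.09%, beside 0.621% over all), 27 higher and 18 lower, in 21 of 38 genes. Col4a1, a collagen chain of basement membranes, was higher at all 5 called CpGs, led by 62.5% in the BPA pool and 46.6% in the control pool (adjusted exact p = 1.45e-04). Hspg2, the basement membrane proteoglycan perlecan, held 11 called CpGs among 496 (2.22%), 7 higher and 4 lower. Timp2, an inhibitor of metalloproteinases, was higher at all 3, and Fbn1, fibrillin, read 32.1% in the BPA pool and 49.2% in the control pool at its 1 called CpG. The 1 called unit among 915 (0.109%, beside 0.164%) was Eln, elastin, at 50% in the BPA pool and 71.7% in the control pool (difference -21.7 points, interval -31.3 to -11.6, adjusted exact p = 0.0299).

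Genes that write, remove or read methylation, with their folate enzymes, had 16 called CpGs among 2588 (0.618%, beside 0.621% over all), 8 higher and 8 lower, in 11 of 27 genes, and 2 of 408 units (0.49%, beside 0.164%). Mthfd1, a folate enzyme of the same one-carbon pathway as Shmt2, held a called unit at 72.5% of 247 reads in the BPA pool and 50.5% of 279 reads in the control pool (difference 22.0 points, interval 13.7 to 29.7, adjusted exact p = 0.00167). Kdm2b, a histone demethylase that binds CpG islands, held a called unit at 78.3% in the BPA pool and 97.9% in the control pool, and 2 further called CpGs, both higher. Dnmt3a, a de novo methyltransferase, was lower at 2 CpGs, 4.55% and 64.8% in the BPA pool, against 17.5% and 82.2% in the control pool. Uhrf1, which brings Dnmt1 to replicating DNA, read 86.7% in the BPA pool and 54.2% in the control pool.

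Imprinted genes carry methylation on 1 parental allele, so that their control regions read near the middle of the scale. Of their 28 promoter windows, 0 held a called CpG, beside 1.2% of all windows, so 28 are too few to tell these shares apart. The Mcts2 window averaged 51.6% in the BPA pool and 52.0% in the control pool, the Meg3 window 43.3% in both pools, and the Plagl1 window 47.7% in the BPA pool and 44.3% in the control pool. Wider gaps without a call were seen in Zrsr1 (60.6% in the BPA pool and 43.9% in the control pool) and in 1 of the Gnas windows (50.2% in the BPA pool and 38.1% in the control pool). Outside these windows, 29 CpGs of 21 among 47 imprinted genes were called (0.719% of the genes' CpGs, beside 0.621% over all), 10 higher and 19 lower, and 0 of 685 units (beside 0.164% over all). All 3 called CpGs of Gnas, a G protein locus, were lower, 2 of them neighbours at 33.5% and 36.8% in the BPA pool, against 56.4% and 59.0% in the control pool. Igf2r, the IGF2 clearance receptor, was lower at 2 neighbours, 21.1% and 49.8% in the BPA pool, against 40.9% and 71.2% in the control pool. Meg3, a maternally expressed RNA, was higher at 2 CpGs 79 and 152 bp downstream of a start, 54.2% and 53.8% in the BPA pool, against 31.2% and 33.6% in the control pool.

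**Figure D3:**
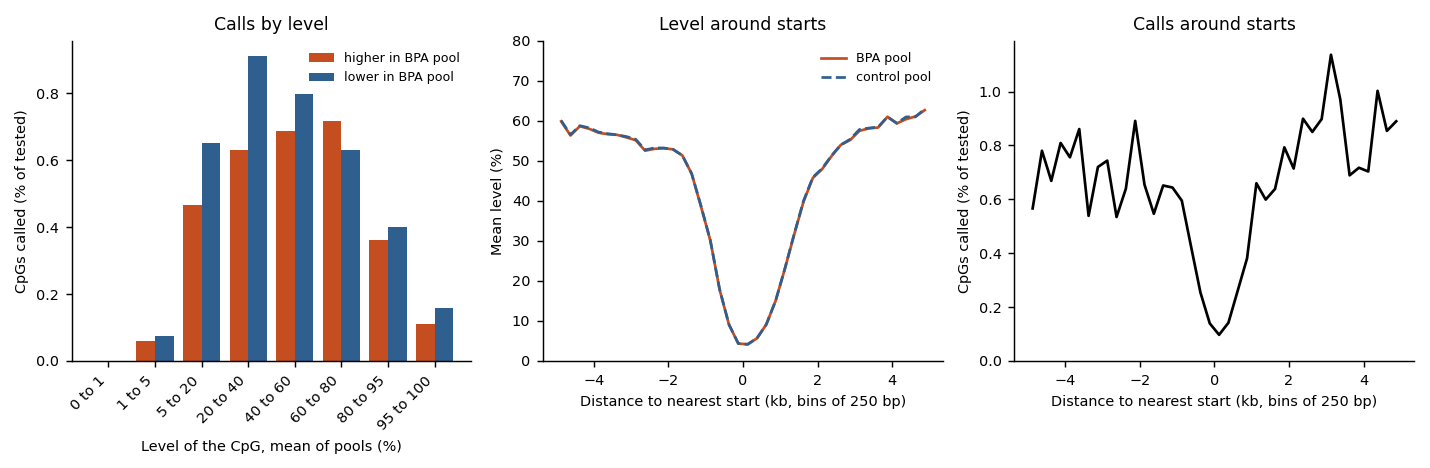
Left, CpGs called higher and lower in the BPA pool as a percentage of CpGs tested, by level (mean of pools). Middle and right, mean level in percent and percentage of CpGs called, by distance from the nearest gene start in bins of 250 bp. Calls are rarest at starts, where the mean level of both pools is near 4%.

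Calls gathered at CpGs of intermediate level. Of the 362197 CpGs between 20% and 80%, 5147 were called (1.42%), beside 4066 of 645343 over 80% (0.630%) and 1058 of 645304 under 20% (0.164%). The 410652 CpGs under 1% gave 0 calls, as classes were set by the mean of the pools and no difference of 5 points can occur there. Between 20% and 40%, 432 calls were higher and 626 lower, while between 60% and 80%, 1408 were higher and 1236 lower. In promoter windows 155 of 125175 CpGs were called (0.124%). Within the 20% to 80% class, promoter windows had a call at 71 of 4237 CpGs (1.68%) and gene bodies at 3183 of 217044 (1.47%), so that the low share at promoters went with their low levels. CpGs over 5 kb from any gene held 2423 calls, 1044 higher and 1379 lower.

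Some units held many called CpGs of 1 direction. The units described here were picked for that number after the values were seen. In Actn1, a non-muscle alpha-actinin, 8 of 19 CpGs of 1 unit (chr12:80168285-80168525) were called and all 8 were higher, with 24.5% in the BPA pool and 10.6% in the control pool. The same 8 CpGs averaged 20.4% in the BPA pool and 16.1% in the control pool of hypothalamus, higher at all 8, and 41.0% in the BPA pool and 37.0% in the control pool of liver, higher at 5. In Palm3, a paralemmin, 6 of 21 CpGs (chr8:84026124-84026297) were called and all 6 were lower, with 5.23% in the BPA pool and 14.8% in the control pool. In hypothalamus these 6 averaged 1.22% in the BPA pool and 0.904% in the control pool, and in liver 3.11% in the BPA pool and 4.92% in the control pool. Neither whole unit passed the unit test (adjusted exact p = 0.648 for Actn1 and 0.523 for Palm3), which uses the read number of 1 CpG.

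**Figure D4:**
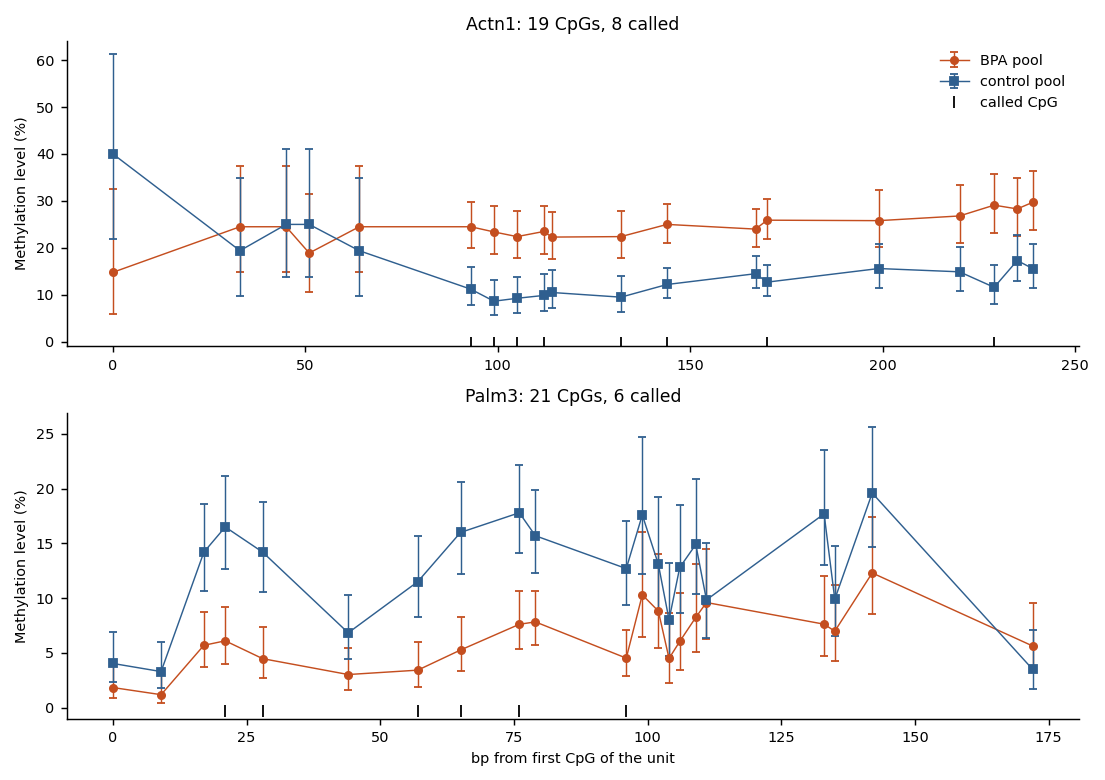
Level in percent of each CpG in the Actn1 unit (19 CpGs) and the Palm3 unit (21 CpGs), by distance in bp from the unit's first CpG, in the BPA pool and the control pool. Bars are 95% Wilson intervals, which cover counting error only, and ticks mark the called CpGs, 8 higher in Actn1 and 6 lower in Palm3.

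Some dense runs without a gene pointed mostly the same way in all tissues. At chr12:20233968-20234381, 13 CpGs were called higher in fat, and those shared were higher at 8 of 8 in hypothalamus and 13 of 13 in liver. These 13 were read deeply in fat, with medians of 1004 reads in the BPA pool and 870 in the control pool. Over all kept CpGs the medians were 195 and 171. Whether reads of several copies are joined there was not tested. The 8 CpGs called at chr8:82304272-82304602 averaged 93.0% in the BPA pool and 78.7% in the control pool of fat, and 90.6% in the BPA pool and 79.4% in the control pool of liver, higher at all 8. In hypothalamus they averaged 84.6% in the BPA pool and 82.8% in the control pool, higher at 6. By contrast, the 7 called at chr8:20557729-20557880 averaged 15.4% in the BPA pool and 2.93% in the control pool of fat, and were lower at all 7 in hypothalamus (3.91% in the BPA pool and 14.0% in the control pool). This last difference between tissues was tested over the whole unit of 30 CpGs and was not called.

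Units called in fat were mostly not called in the other tissues. In hypothalamus, 5 of 275351 shared units were called (0.00182%), and in liver 54 of 315414 (0.0171%). Of the units called in fat, 490 were shared with hypothalamus, where 255 had the fat direction (52.0%, beside 49.4% of all units). Fat directions and differences were taken here on the shared CpGs alone. In liver, 548 were shared and 290 had the fat direction (52.9%, beside 49.6%). The median absolute difference at those units was 15.0 points in fat and 3.00 in hypothalamus, and 16.1 points in fat and 2.85 in liver, but the fat values were chosen for their size. None of the fat units was also called in hypothalamus and 1 was in liver, in the opposite direction. At an unadjusted p under 0.05, 28 of the 490 passed in hypothalamus (5.71%, beside 2.18% of all shared units), 12 of them in the fat direction, and 42 of the 548 passed in liver (7.66%, beside 2.62%), 26 of them in the fat direction. Read number and level of these units were not matched to those of all units.

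**Figure D5:**
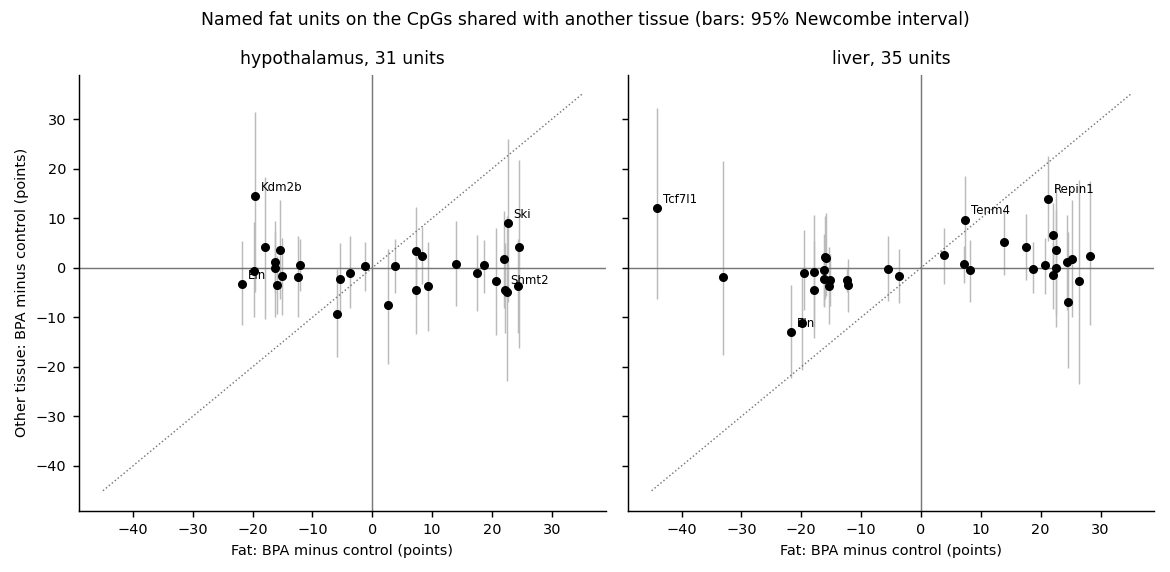
Difference, BPA minus control, in percentage points at the named fat units, in fat on the horizontal axis and in hypothalamus (31 units) or liver (35 units) on the vertical axis, with a dotted line of equality. Both axes use only the CpGs shared with the other tissue, so fat values can depart from those of the whole unit. In hypothalamus the differences run from -9.30 to 14.5 points and in liver from -13.0 to 13.97 points, on both sides of 0.

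Of the named units, 31 were shared with hypothalamus, where 17 had the fat direction and 0 passed an unadjusted p of 0.05 in Fisher's exact test. With liver 35 were shared, where 26 had the fat direction and 5 passed it. The fat direction is that on the shared CpGs alone. So the unit at chr16:14656620, at -23.33 points in fat, counts as agreeing in both tissues. Its 1 shared CpG stood at 3.80 points in fat, 0.3 in hypothalamus and 2.5 in liver. Of all shared units, 2.18% passed it in hypothalamus and 2.62% in liver. These 5 were Repin1, Eln, Esrrg, Tenm4 and Shh, all in the direction seen in fat, with Tenm4 resting on 1 of the 4 CpGs of its unit. Eln read 51.0% in the BPA pool and 64.0% in the control pool of liver, and Esrrg 72.9% in the BPA pool and 84.0% in the control pool of liver. Shmt2 stood at 71.1% in the BPA pool and 75.5% in the control pool of hypothalamus. In liver it stood at 20.2% in the BPA pool and 21.7% in the control pool. The Shmt2 difference in fat minus that in hypothalamus was 26.6 points, and minus that in liver 23.7 points. Neither passed the threshold of the Wald test on binomial read counts, so a Shmt2 difference particular to fat was not shown. Tcf7l1 stood at 75.2% in the BPA pool and 63.2% in the control pool of liver, and its difference between fat and liver missed the threshold (adjusted p = 0.0893, Wald test on binomial read counts).

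Whether the BPA difference itself differed between tissues was tested by the difference of log odds ratios. Against hypothalamus 7 units passed (0.00254%), of which 1 was a called fat unit, and against liver 41 (0.013%), of which 16 were called fat units. Since fat units were chosen for their fat difference, this comparison favours them. Tgm2, a transglutaminase that crosslinks proteins, stood at 30.1% in the BPA pool and 52.5% in the control pool of fat, against 64.9% in the BPA pool and 62.1% in the control pool of liver (adjusted p = 0.0356, Wald test on binomial read counts). Plekha6, a pleckstrin-domain protein, stood at 88.0% in the BPA pool and 71.2% in the control pool of fat, against 81.4% in the BPA pool and 86.6% in the control pool of liver (adjusted p = 0.0178, Wald test on binomial read counts). Grid1, a glutamate receptor of the delta family, stood at 75.3% in the BPA pool and 57.7% in the control pool of fat, against 51.3% in the BPA pool and 59.1% in the control pool of liver (adjusted p = 0.0178, Wald test on binomial read counts).

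Markers of other cell types were compared between the fat pools over CpGs shared by the tissues, and their median levels differed most for hepatocytes. Over 10 hepatocyte genes the median was 81.9% in the BPA pool and 79.0% in the control pool, with 4 genes higher and 6 lower. Over 10 genes of epididymis and testis, which adjoin this fat, it was 78.0% in the BPA pool and 78.1% in the control pool, with 4 higher and 6 lower. In the same way, 10 of 13 endothelial genes were lower in the BPA pool, with a median of 59.4% in the BPA pool and 59.3% in the control pool. Eng, a co-receptor of vessels, stood at 49.9% in the BPA pool and 53.4% in the control pool, and Esam, an adhesion molecule of endothelium, at 12.2% in the BPA pool and 14.7% in the control pool. Over all fat CpGs of the endothelial list, 10 were called (0.911%, beside 0.621% over all), 4 higher and 6 lower. Of the lower ones, a pair of neighbours in Pecam1, the endothelial CD31, read 48.3% and 43.4% in the BPA pool, against 66.4% and 67.9% in the control pool. Of the higher ones, a CpG of Vwf read 60.4% in the BPA pool and 39.8% in the control pool. Of 14 leukocyte genes 8 were higher and 6 lower, with medians of 69.0% in the BPA pool and 69.4% in the control pool. Of 9 mesothelial genes 7 were lower, with medians of 24.5% in the BPA pool and 25.4% in the control pool. The called CpGs of that list ran mostly the other way, with 7 higher and 1 lower (1.39% of its CpGs called, beside 0.621% over all). Among them, Krt18, a simple-epithelium keratin, was higher at 3 neighbours, 83.3%, 86.1% and 82.4% in the BPA pool, against 70.5%, 76.9% and 70.9% in the control pool. Of 10 preadipocyte and fibroblast genes 7 were lower, with medians of 52.0% in the BPA pool and 53.1% in the control pool. Rbfox3, a neuronal splicing factor, held the 1 called unit of the neuron list, at 96.3% of 27 reads in the BPA pool and 46.2% of 26 reads in the control pool. The part of cell composition in the called differences was not tested.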

How the data were processed

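Reduced representation bisulfite libraries of 18 samples, 3 for each treatment in gonadal fat, hypothalamus and liver, were sequenced. They were made from 100 ng of DNA each by MspI digestion, bisulfite treatment and PCR, per the labels' protocols. BSMAP and the build GRCm38 (mm10) are named per the submitters' processing notes, and neither its version nor the treatment of PCR copies is given in the sources used here. The authors deposited 1 table per tissue, which joins the 3 samples of a treatment into a pool. Per the file headers, it holds the deposited read counts of each CpG in each pool and the deposited methylation fraction, or methylated reads over all reads. A deposited p-value from Fisher's exact test and a deposited credible difference, a score of the authors' own comparison, served only as a check and as an alternative setting. Positions are 1-based.

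On chromosomes 1 to 19, CpGs were kept if both pools had 20 or more reads, with 393321715 reads summed over them in the BPA pool and 345926586 in the control pool. Methylated reads were the count times the fraction, rounded. Fisher's exact tests, each two-sided, were computed per CpG and per unit, with Benjamini-Hochberg adjustment over all CpGs or all units, and recomputed p-values were within 0.01 on the log10 scale of the deposited ones at 99.66% of CpGs. A call needed an adjusted p under 0.05 and at least 5 percentage points. Units joined CpGs at most 100 bp apart. A unit's level is the unweighted mean of its CpGs and its read number their mean, so that shared reads are not counted again. Levels have Wilson and differences Newcombe intervals, both 95%. Between tissues, log odds ratios of the pools were compared by a Wald test with 0.5 added to each cell, adjusted over all shared units. Unit values set against another tissue, those of fat included, rest on the shared CpGs of the unit alone.

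Gene bodies came from a RefSeq table of 49943 genes on the same assembly, without exons, and a CpG outside any body was given to genes within 5 kb. Starts, strands and sequences came from 32851 promoter entries of RefSeq on GRCm38.p6, which cover no start of chromosome 18. Named units are the 12 called units of at least 3 CpGs with the largest difference in each direction, and up to 2 called units per list and direction. The 10 gene lists and 8 marker lists, and the choice of fat and of its CpGs, were made with earlier results of these data known. Genes named for single called CpGs within the lists, and those with the most called CpGs, were chosen after their values were seen. The tests were checked on simulated data. Python 3.11.15, NumPy 2.4.6, pandas 2.3.3, SciPy 1.17.1, numba 0.67.0 and matplotlib 3.10.9 were used. Alternatives changed the read minimum, the unit gap, the size of difference, the weights of CpGs, the adjustment and the counting error. Some results are not reported here.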

Additional observations from a re-analysis of the deposited data

Results flagged for a closer look

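At 16 of the called fat units the BPA difference also differed from that of liver, and at 1 from that of hypothalamus, by the test of log odds ratios. The values below are the fat difference minus that of the other tissue, in percentage points, and fat units were chosen for their fat difference. Against liver, higher units were A530013C23Rik (29.2), Aldh3b3, an aldehyde dehydrogenase (26.0), chromosome 9 at 78523577 (25.6), Grid1 (25.4) and Plekha6 (22.0). Lower units were Fmnl2, a formin of the actin cytoskeleton, with Gm52511 (-27.1), Tgm2 (-25.2), chromosome 19 at 59195674 (-22.44), chromosome 1 at 37928573 (-20.9), Rab8b, a GTPase of vesicle traffic (-20.05), G630064G18Rik (-13.6) and Gucy1a2, a guanylate cyclase subunit (-12.4). These 12 were also called in fat with CpGs weighted by reads, and 11 of them are single CpGs.

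The other 4 join CpGs of very unequal depth, and their weighted fat differences were not called. They were Cldn14, a claudin (-15.87 against liver, weighted fat difference 1.22), Gm52793 (-8.80 against liver, weighted -0.309), chromosome 10 at 49000158 (-6.70 against liver, weighted -0.345) and chromosome 10 at 23625109 (10.9 against liver and 7.75 against hypothalamus, weighted 0.00895). In the unit of Gm52793 the reads per CpG ran from 35 to 68206 in the BPA pool.

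The BPA difference in ribosomal DNA differed between tissues at 1 unit by the full call rule. At the Rn18s-rs5 unit at 39848174 of chromosome 17, which also holds AY036118, fat minus hypothalamus was -7.52 points. Against liver it was -3.0 points there, and at the unit at 39843014 it was -4.50 points against hypothalamus. Both passed the threshold of the test of log odds ratios but fell short of the 5 points a call needs. The unit at 39843014 against liver (-2.86 points) did not pass the threshold. Neither did the long unit at 39845037 against hypothalamus (-3.01 points) or liver (1.59 points). Ribosomal repeats are near-identical copies, so reads of many copies are joined here.

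Data outside the 1652844 CpGs also held calls, at smaller shares than the 0.621% of those CpGs, but at lower depth. Median reads in the BPA pool and the control pool were 122 and 108 on X, and 128 and 111 on Y. They were 18 and 16 in the set of 10 to 19 reads, beside 195 and 171 for the kept CpGs. Depth was not matched, so the smaller shares are no result about these CpGs. Each set was adjusted on its own. The X chromosome had 131 of 55982 CpGs called (0.234%), 42 higher and 89 lower in the BPA pool. The Y chromosome had 51 of 21503 (0.237%), 8 higher and 43 lower. On chromosomes 1 to 19, CpGs with 10 to 19 reads in the smaller pool had 37 calls among 138423 (0.0267%), 19 higher and 18 lower.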

How the results depend on the processing

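No paired analysis was possible because the deposited tables hold pools and no value per sample, and for the same reason no sample could be left out in turn. Of the main counts, 10271 called CpGs and 589 called units, the number fell to 2848 CpGs and 214 units at a minimum of 20 points, to 35 CpGs (28.6% higher, against 47.2%) and 84 units with widened counting error, and to 163 CpGs and 35 units (37.1% higher, against 48.4%) with Bonferroni adjustment. The authors' credible difference of at least 5 points marked 45441 CpGs. Units joined over at most 50 bp gave 2230 calls, over at most 200 bp 168, with reads summed over CpGs 15844, and with only units of at least 3 CpGs tested 15. The mean difference was -0.14 points at 50 reads or more, -0.231 weighted by reads and -0.24 with equal weight to units. A minimum of 10 or 50 reads and leaving out the deepest 0.1% of CpGs kept both counts within 1.5 times. Of 36 named units, 35 kept their call at 10 reads, 8 with widened error, 23 with read weights and 12 at 200 bp. Tcf7l1 and Shmt2 kept it in 12 of 13 settings. The unit at chr16:14656620 turned to 3.80 points at 50 reads (adjusted exact p = 0.625), as only 1 of its CpGs has that depth.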

Other observations

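The largest differences of all units, without a minimum of CpGs, lay at sparsely read CpGs, and were chosen for their size. A single CpG of Cacna2d3, a calcium channel subunit, read 25% of 40 reads in the BPA pool and 90.2% of 51 reads in the control pool (difference -65.2 points, adjusted p = 6.48e-06, Fisher's exact test). Tfap2c, an AP-2 transcription factor, read 30.8% of 26 reads in the BPA pool and 89.2% of 65 reads in the control pool at 1 CpG. Dock9, an exchange factor of small GTPases, averaged 31.0% in the BPA pool and 93.2% in the control pool over 2 CpGs. Among higher units, 1700065L07Rik averaged 83.2% in the BPA pool and 12.5% in the control pool over 2 CpGs with 20 reads each, and Atxn2, an RNA-binding protein, 83.5% in the BPA pool and 28.4% in the control pool over 2 CpGs.

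Ribosomal DNA was lower in fat over long units. The Rn18s-rs5 unit of 198 CpGs at chr17:39845037-39846945 averaged 31.2% in the BPA pool and 34.9% in the control pool, with 17 CpGs called and all 17 lower. In liver its 130 shared CpGs averaged 27.4% in the BPA pool and 31.4% in the control pool. On these CpGs fat averaged 30.9% in the BPA pool and 33.4% in the control pool. In hypothalamus its 158 shared CpGs averaged 28.1% in the BPA pool and 27.8% in the control pool. On these fat averaged 29.9% in the BPA pool and 32.6% in the control pool.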
